A study of Mus musculus with 6 samples.

Results

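The genes described here are 10 regulators of DNA methylation and of Polycomb repression, namely Dnmt1, Uhrf1, Dnmt3a, Dnmt3b, Tet2, Tet3, Ezh2, Eed, Suz12 and Kdm6b. They were taken by gene symbol, all 10 were found among the 34745 genes of the files, and 8 of them reached a mean FPKM of 1 and entered the test with 9627 genes. FPKM is the fragment count scaled to the length of the gene and to the total of the library. RNA was measured in 3 WT and 3 Scd-1-/- libraries of CD8+ effector T cells (Teff), and the comparison asks how loss of Scd-1, the desaturase that makes oleic and palmitoleic acid, alters their gene expression. WT cells came from C57BL/6J mice and Scd-1-/- cells from B6.129-Scd1tm1Ntam/J mice, which lack the gene in every cell of the body, and the study used male mice aged 6 to 8 weeks. The knockout mice were donated and the WT mice purchased. Differences of colony or strain background therefore cannot be told apart from loss of Scd-1. Splenic CD8+ T cells of both genotypes were activated for 3 days with antibodies to CD3 (5 μg/mL) and CD28 (0.5 μg/mL) in medium with 100 U/mL of IL-2, then grown for 3 further days with IL-2 alone, and harvested on day 6. The methods speak in general of independent experiments, but neither they nor the labels say whether the libraries of a genotype came from separate mice or cultures, so the p-values measure only the spread between these libraries, which may be technical.

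DNA methylation silences genes and repeats. When DNA is replicated, Uhrf1 recognizes the half-methylated sites and brings in Dnmt1, which copies the mark, while Dnmt3a and Dnmt3b set new marks and the Tet enzymes oxidize 5-methylcytosine on the way to its removal. Polycomb repressive complex 2 (PRC2), built on Ezh2 or Ezh1 with Eed and Suz12, methylates lysine 27 of histone H3, and Kdm6b and Kdm6a remove that mark. In CD8+ T cells Dnmt3a and Ezh2 are known for silencing genes of the naive and memory state as effector cells form.

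The libraries held 14034479 to 15866216 counts, and a gene without a count in a library may still hold up to 3 counts (0.189 to 0.214 CPM), a limit for counting error only. Scd1 was read at 45.3 to 58.2 FPKM in WT and at 0.261 to 0.528 FPKM in Scd-1-/- libraries, as the labels have it. The first principal component of the tested genes, with 42.9% of the variance, parted replicate 1 of both genotypes from the other libraries, and the second, with 36.3%, parted the genotypes. Values with replicates 2 and 3 only are therefore given beside the results as well. That fit has 2 libraries a genotype and leaves out those that stood apart, which narrows the spread that its p-values measure. It called 1213 genes by adjusted p, against 11 with all libraries. The summed FPKM of 5 CD8 T cell markers was 1468 to 1808 in WT and 1397 to 1619 in Scd-1-/- libraries, most of it from the 3 Cd3 genes. Cd8a was lower without overlap, with 43.2, 47.6 and 47.0 FPKM in WT and 36.6, 27.9 and 33.7 FPKM in Scd-1-/- (log2 fold change -0.46, adjusted p = 0.297, edgeR), and with replicates 2 and 3 only Cd8a (-0.58, adjusted p = 0.0166, edgeR) and Cd8b1 (-0.40, adjusted p = 0.0382, edgeR) passed. Of the CD4 T cell, myeloid and erythroid lists, Cd68 alone reached the FPKM minimum. The CD4 T cell list summed to 0.156 to 0.672 FPKM in WT and to 0.0409 to 0.103 FPKM in Scd-1-/-, from 4 to 33 counts a library. The erythroid list summed to 0 to 0.179 and to 0.119 to 0.215 FPKM. The myeloid list summed to 8.02 to 17.4 FPKM in WT and to 8.86 to 27.9 FPKM in Scd-1-/-. The B cell list summed to 9.41 to 10.7 and to 3.13 to 7.99 FPKM, nearly all of it Cd79b (log2 fold change -1.02), with Ms4a1 and Pax5 at 0. The natural killer cell list summed to 0.501 to 1.16 and to 1.72 to 9.39 FPKM, nearly all of it Klrb1c (3.09), with Ncr1 and Klra8 under the FPKM minimum. Neither Cd79b nor Klrb1c passed the adjusted p with all libraries. With replicates 2 and 3 only, Cd79b (-1.49, adjusted p = 0.00155, edgeR) and Klrb1c (3.33, adjusted p = 2.97e-05, edgeR) both passed. The part of these markers in the results below was not tested.

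None of the 8 tested regulators passed the thresholds of the study (p under 0.001 and a log2 fold change of 1 or more in either direction), which 71 of the 9627 genes passed (0.738%). With the quasi-likelihood test of edgeR, none had a Benjamini-Hochberg adjusted p under 0.05, while 11 genes did (0.114%), and DESeq2 and limma called none of them either. At an unadjusted p under 0.05 there was 1 regulator, Uhrf1, which was lower in Scd-1-/- Teff, as were 4.68% of all tested genes. The FPKM of the genotypes did not overlap for 1 of the 8, again Uhrf1, and 8.32% of all tested genes were likewise lower without overlap. Of the 8, 7 had a negative log2 fold change, with a median of -0.20, while 4823 of the 9627 genes were negative. These genes share libraries, so the count is a description. In these bulk libraries, fewer cells of a type and less RNA per cell cannot be told apart.

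**Figure D1:**
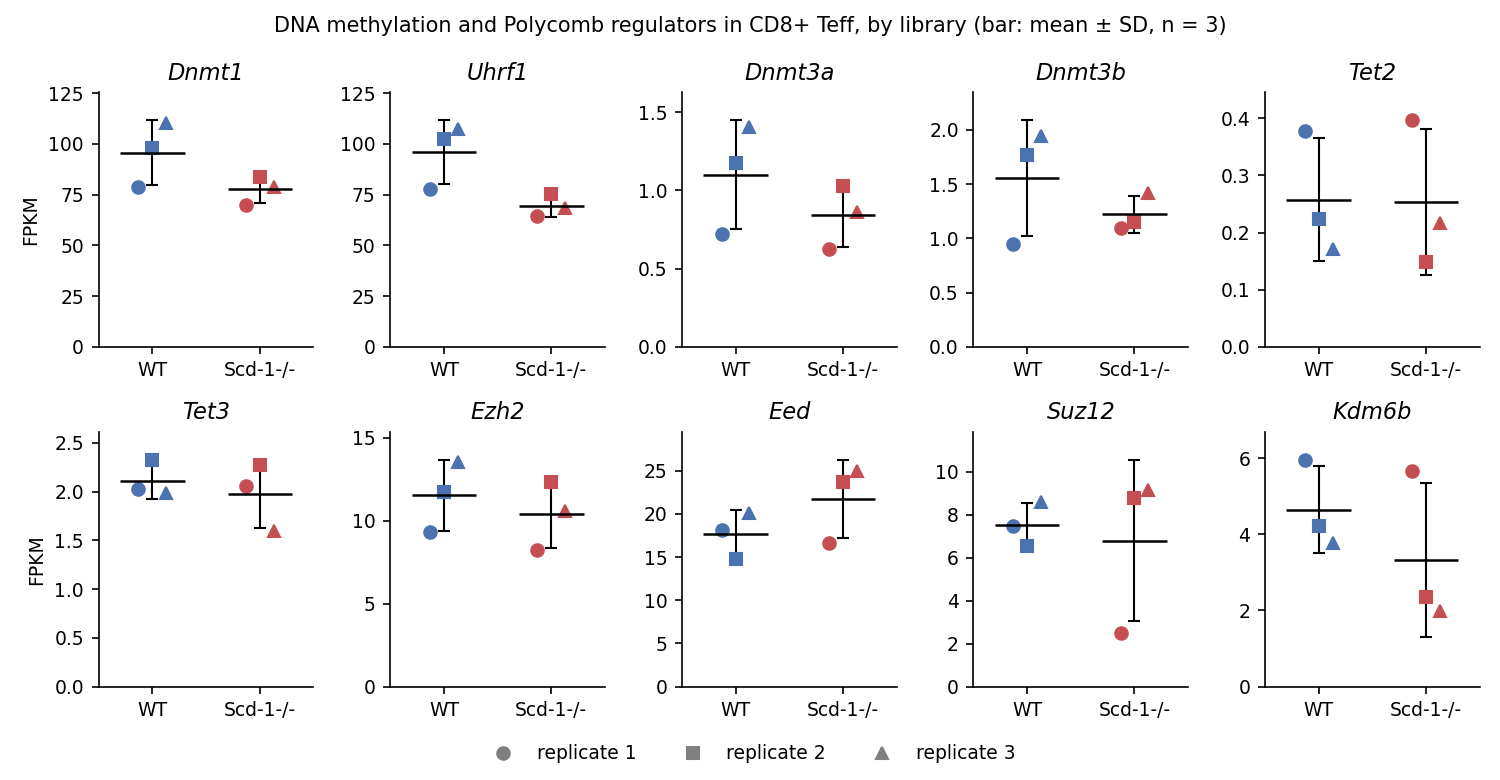
FPKM (y axis, linear and starting at 0) of each of the 10 regulators in the 3 WT (blue) and 3 Scd-1-/- (red) libraries, with circle, square and triangle for replicates 1, 2 and 3 and a bar for the mean ± SD. The genotypes are apart for Uhrf1 alone among the 10, and the low Suz12 value of 2.48 and the high Kdm6b value of 5.66 in the Scd-1-/- group both belong to replicate 1.

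The maintenance pair was by far the most abundant. Uhrf1 (ENSMUSG00000001228, chromosome 17, 56303321 to 56323486 of GRCm38, plus strand), the reader of half-methylated DNA, had 77.8, 102 and 107 FPKM in WT replicates 1, 2 and 3. In Scd-1-/- replicates 1, 2 and 3 it had 64.5, 75.1 and 68.7 FPKM. Every Scd-1-/- library lay below every WT library, though the gap between the lowest WT and the highest Scd-1-/- library was small next to the range within WT. The means were 95.8 ± 15.8 and 69.4 ± 5.34 FPKM (SD, n = 3), and the log2 fold change was -0.44 (SE 0.14, 95% interval -0.77 to -0.11, adjusted p = 0.361, edgeR). With replicates 2 and 3 only, Uhrf1 passed, at a log2 fold change of -0.51 (adjusted p = 0.0133, edgeR), as did 6.07% of the genes in that fit in the same direction. A processed pseudogene, Gm5648, matched 1590 bases of the Uhrf1 transcript at 98.3% identity and was not analysed here, so reads shared with it make the level of Uhrf1 uncertain.

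Dnmt1 (ENSMUSG00000004099, chromosome 9, 20907209 to 20959888, minus strand), the methyltransferase that Uhrf1 recruits, had 78.8, 98.0 and 110 FPKM in WT. Its values in Scd-1-/- were 70.1, 83.8 and 79.0 FPKM. The groups overlapped, since WT replicate 1 lay below Scd-1-/- replicates 2 and 3. The means of 95.7 ± 15.9 and 77.6 ± 6.92 FPKM (SD, n = 3) gave a log2 fold change of -0.28 (SE 0.14, 95% interval -0.61 to 0.06, adjusted p = 0.581, edgeR). Within same-numbered libraries the log2 CPM of Dnmt1 was lower in Scd-1-/- by a difference of -0.16, -0.25 and -0.42 for replicates 1, 2 and 3, and that of Uhrf1 by -0.26, -0.47 and -0.58. How many of all tested genes were lower in every such pair was not counted.

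Ratios of FPKM between regulators were computed after their values had been seen and carry no test. The ratio of Uhrf1 to Dnmt1 was 0.987, 1.04 and 0.971 in WT and 0.919, 0.896 and 0.870 in Scd-1-/-, so it was lower in every Scd-1-/- library. Pcna, the sliding clamp of the replication fork with which Dnmt1 associates, had a log2 fold change of 0.03 (adjusted p = 0.976, edgeR). The ratio of Uhrf1 to Pcna was 0.708, 0.752 and 0.794 in WT and 0.630, 0.565 and 0.470 in Scd-1-/-, and that of Dnmt1 to Pcna was 0.717, 0.720 and 0.817 against 0.686, 0.630 and 0.541. Both ratios were apart between the genotypes, while that of Ezh2 to Pcna (0.0846, 0.0863 and 0.100 against 0.0806, 0.0929 and 0.0725) overlapped. Pcna was the only replication gene used in this way. Of 24 cell cycle genes, 16 had a negative and 8 a positive log2 fold change, from -0.45 to 0.44. Such a ratio therefore depends on the gene chosen.

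Of the 9 genes in a list for maintenance of DNA methylation, 9 were tested and 0 passed either rule, with a median log2 fold change of -0.12 and 1 gene, Uhrf1, at an unadjusted p under 0.05. Those with the highest FPKM were Pcna, Dnmt1, Uhrf1 and Lig1, the ligase of lagging-strand synthesis (-0.16, adjusted p = 0.723, edgeR). Uhrf2, the paralog of Uhrf1, had 4.66, 5.93 and 5.19 FPKM in WT and 4.48, 5.79 and 6.09 FPKM in Scd-1-/-. Its groups overlapped, and its log2 fold change was 0.08 (95% interval -0.32 to 0.48).

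The windows around transcript starts were searched for an E2F-like motif, since E2F factors are known for driving S phase genes, Dnmt1, Uhrf1 and Ezh2 among them. RefSeq entries on GRCm38.p6 gave 14 start sites for 9 of the 10 regulators, each with 250 bases before and 50 after the start. The letters searched on both strands were TTTCCCGC, TTTCGCGC, TTTGCCGC and TTTGGCGC, and the matches found did not overlap. They were found in 4 of the 14 windows (28.6%) and in 4 of the 9 genes, against 744 of 32851 windows in all (2.27%) and 7 of 20 genes with an entry in a cell cycle list. The matches lay in the windows of Dnmt1, Uhrf1, Suz12 and Ezh2. The upstream 250 bases of the first 3 are shown because the motif lies in them, with the match in capitals. In the Ezh2 window, TTTGGCGC began 3 bases after the start, and another match for Dnmt1 began 33 bases after it. A match is a description of letters and says nothing of binding in these cells.
Dnmt1 start 3, chr9:20952624-20952873, minus strand: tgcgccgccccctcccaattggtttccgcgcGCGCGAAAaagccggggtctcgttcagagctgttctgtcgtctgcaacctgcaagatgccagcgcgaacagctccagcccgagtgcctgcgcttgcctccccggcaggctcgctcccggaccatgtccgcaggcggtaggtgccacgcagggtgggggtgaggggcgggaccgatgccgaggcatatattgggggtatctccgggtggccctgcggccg
Uhrf1 start 2, chr17:56304063-56304312, plus strand: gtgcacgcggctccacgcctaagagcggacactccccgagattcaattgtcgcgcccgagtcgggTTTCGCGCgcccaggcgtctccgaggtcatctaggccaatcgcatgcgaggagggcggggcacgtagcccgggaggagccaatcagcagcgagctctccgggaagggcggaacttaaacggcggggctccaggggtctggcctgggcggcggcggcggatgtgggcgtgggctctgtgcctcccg
Suz12, chr11:79992856-79993105, plus strand: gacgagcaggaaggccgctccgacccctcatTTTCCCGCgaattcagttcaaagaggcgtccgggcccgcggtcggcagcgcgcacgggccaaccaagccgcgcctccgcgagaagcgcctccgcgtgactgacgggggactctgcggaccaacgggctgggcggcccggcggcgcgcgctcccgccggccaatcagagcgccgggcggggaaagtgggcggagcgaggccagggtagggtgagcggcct
The 14 windows held a median of 30.5 CpG sites, the sites that the Dnmt enzymes methylate, against 7 over all windows. Tet2 had the most, with 57, and the first start of Dnmt1 the fewest, with 2.

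**Figure D2:**
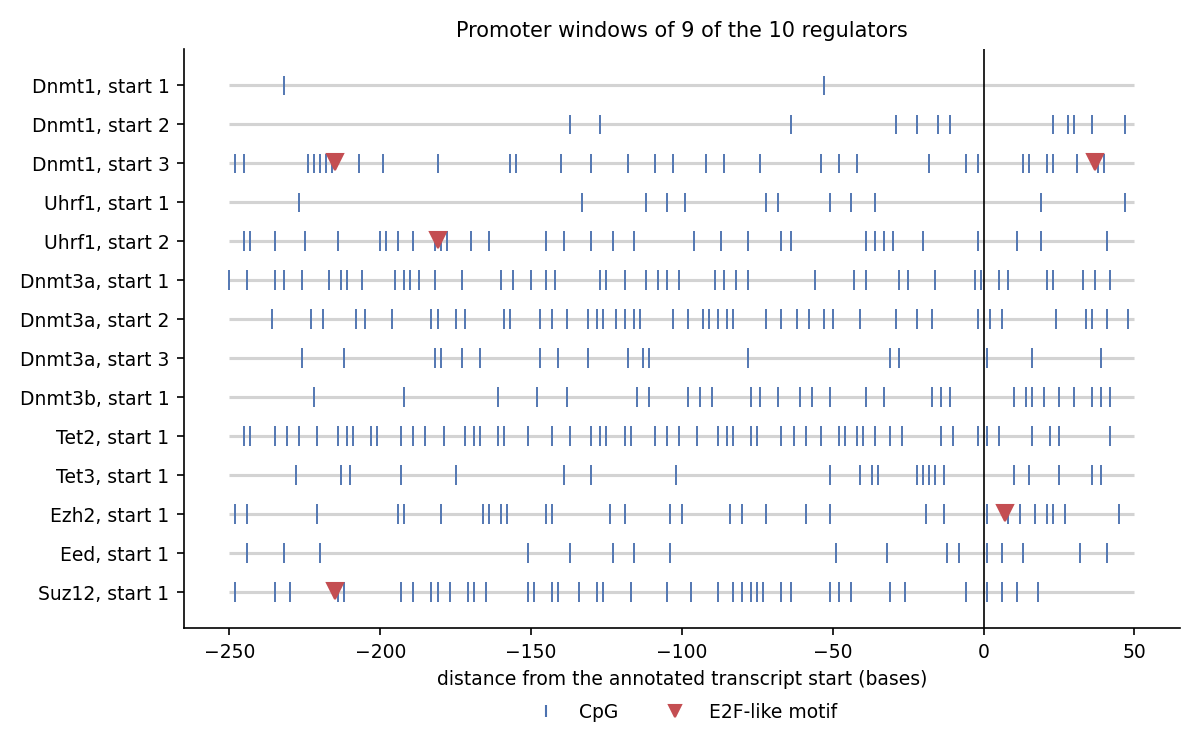
CpG sites (blue ticks) and matches to the E2F-like motif (red triangles) by distance from the annotated transcript start (x axis, in bases) in 14 promoter windows of 9 regulators. Motif matches fall in 4 windows, those of start 3 of Dnmt1, start 2 of Uhrf1, Ezh2 and Suz12, and the starts of Dnmt1 differ in CpG number from 2 to 33.

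The enzymes that set new methylation marks were scarce. Dnmt3a (ENSMUSG00000020661, chromosome 12, 3806007 to 3914443, plus strand) had 0.720, 1.18 and 1.40 FPKM in WT and 0.627, 1.03 and 0.863 FPKM in Scd-1-/-, from 285 to 583 counts a library. WT replicate 1 lay among the Scd-1-/- values, so the groups overlapped. Within same-numbered libraries the differences in log2 CPM were -0.19, -0.22 and -0.64. The means were 1.10 ± 0.348 and 0.839 ± 0.202 FPKM (SD, n = 3). In the fit to all 17192 genes with a count, which took in genes under the FPKM minimum, its log2 fold change was -0.37 (SE 0.27, 95% interval -0.98 to 0.23, adjusted p = 0.747, edgeR).

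Dnmt3b (ENSMUSG00000027478, chromosome 2, 153649450 to 153687730, plus strand), its partner in setting new marks, had 0.946, 1.77 and 1.95 FPKM in WT and 1.09, 1.15 and 1.42 FPKM in Scd-1-/-. The lowest value of all was that of WT replicate 1, and the groups overlapped. The log2 fold change was -0.32 (SE 0.29, 95% interval -0.99 to 0.36, adjusted p = 0.797, edgeR). A close copy of Dnmt3b, Dnmt3c, with 93.9% identity over 1434 bases, had 0 counts in the 6 libraries. Dnmt3l, the cofactor without catalytic activity of its own, had 2 counts in WT replicate 1 and 0 in the other 5 libraries. The ratio of Dnmt1 to the sum of Dnmt3a and Dnmt3b was 47.3, 33.3 and 33.0 in WT and 40.8, 38.4 and 34.7 in Scd-1-/-, without a gap between the genotypes.

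Of the Tet enzymes, Tet3 (ENSMUSG00000034832, chromosome 6, 83362373 to 83459084, minus strand) was the more abundant, with 2.02, 2.32 and 1.99 FPKM in WT and 2.05, 2.27 and 1.60 FPKM in Scd-1-/-. The groups overlapped, and the lowest value was that of Scd-1-/- replicate 3. Its log2 fold change was -0.08 (SE 0.18, 95% interval -0.49 to 0.34, adjusted p = 0.932, edgeR).

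Tet2 (ENSMUSG00000040943, chromosome 3, 133463679 to 133545139, minus strand) stood at 0.378, 0.223 and 0.171 FPKM in WT and at 0.396, 0.149 and 0.217 FPKM in Scd-1-/-. Replicate 1 was the highest of both genotypes, with 172 and 185 counts against 63 to 103 in the other 4 libraries. The log2 fold change over all genes with a count was -0.01 (SE 0.41, 95% interval -0.90 to 0.89, adjusted p = 0.997, edgeR), so a difference of nearly 2-fold either way was not detectable. Tet1, the other enzyme of the family, had 16 to 29 counts a library and 0.0349 to 0.0661 FPKM. In a list of 10 genes for oxidation and excision of 5-methylcytosine, 7 were tested and 0 passed, also at an unadjusted p under 0.05, with a median log2 fold change of -0.08. Its 4 most abundant members were the repair genes Apex1 (0.13), Neil1 (-0.17), Xrcc1 (-0.15) and Lig3 (-0.07).

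Among the core subunits of PRC2, none passed the test. Ezh2 (ENSMUSG00000029687, chromosome 6, 47530139 to 47595341, minus strand), the catalytic subunit of dividing cells, had 9.30, 11.7 and 13.6 FPKM in WT and 8.25, 12.3 and 10.6 FPKM in Scd-1-/-. The groups overlapped throughout, and replicate 1 was the lowest of each. The means of 11.5 ± 2.13 and 10.4 ± 2.06 FPKM (SD, n = 3) gave a log2 fold change of -0.12 (SE 0.19, 95% interval -0.57 to 0.32, adjusted p = 0.895, edgeR).

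Ezh1, the paralog found in resting cells, had 7.11, 4.84 and 4.79 FPKM in WT and 8.19, 5.58 and 5.70 FPKM in Scd-1-/-, with a log2 fold change of 0.24 (adjusted p = 0.822, edgeR). Here replicate 1 was the highest of each genotype. The ratio of Ezh2 to Ezh1 was 1.31, 2.43 and 2.83 in WT and 1.01, 2.21 and 1.86 in Scd-1-/-. Replicate 1 of either genotype had the lowest ratio, and the genotypes overlapped.

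Eed (ENSMUSG00000030619, chromosome 7, 89954654 to 89980983, minus strand), the subunit that binds the methylated lysine, was the single regulator with a higher mean in Scd-1-/-. It had 18.2, 14.7 and 20.1 FPKM in WT and 16.6, 23.7 and 24.9 FPKM in Scd-1-/-, where replicates 2 and 3 lay above every WT library and replicate 1 did not. The log2 fold change was 0.32 (SE 0.20, 95% interval -0.15 to 0.80, adjusted p = 0.663, edgeR), and with replicates 2 and 3 only it was 0.52 (adjusted p = 0.0711, edgeR). By the root-mean-square difference in centred log2 CPM over the 6 libraries, the genes most like Eed were Uba3 (0.0390), Dcun1d5 (0.0396) and Calm2 (0.0407).

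Suz12 (ENSMUSG00000017548, chromosome 11, 79993106 to 80034123, plus strand), the scaffold of PRC2, had 7.48, 6.52 and 8.56 FPKM in WT and 2.48, 8.75 and 9.15 FPKM in Scd-1-/-. One library set its mean: Scd-1-/- replicate 1 held 312 counts, against 740 to 1174 in the other 5 libraries. Its log2 CPM there lay at -1.86 from the mean of Scd-1-/- replicates 2 and 3, and 0.364% of the tested genes had a lower difference. The log2 fold change was -0.12 (SE 0.43, 95% interval -1.12 to 0.87, adjusted p = 0.955, edgeR), and without that library it turned to 0.27 (adjusted p = 0.454, edgeR). With replicates 2 and 3 only it was 0.29. The ratio of Eed to Suz12 was 2.43, 2.26 and 2.35 in WT and 6.71, 2.71 and 2.72 in Scd-1-/-, so it was higher in every Scd-1-/- library and highest in replicate 1.

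In a list of 6 PRC2 core genes, 6 were tested and 0 passed, also at an unadjusted p under 0.05, with a median log2 fold change of -0.12. The histone chaperones Rbbp4 (-0.15) and Rbbp7 (-0.19) were its most abundant members. Of 6 accessory subunits, 4 were tested and 0 passed, with 1 at an unadjusted p under 0.05. Mtf2, a subunit that guides PRC2 to CpG-rich DNA, had 0.470, 0.671 and 0.866 FPKM in WT and 0.458, 2.10 and 2.12 FPKM in Scd-1-/-. As with Suz12, Scd-1-/- replicate 1 was its lowest library, and the log2 fold change was 1.25 (95% interval 0.01 to 2.49, adjusted p = 0.488, edgeR). With replicates 2 and 3 only, Mtf2 passed at 1.49 (adjusted p = 0.00107, edgeR). Phf19, a related subunit, was lower in every Scd-1-/- library, with 5.43, 7.65 and 7.73 FPKM in WT and 5.08, 5.21 and 5.31 FPKM in Scd-1-/- (log2 fold change -0.39, adjusted p = 0.499, edgeR), and it passed with replicates 2 and 3 only (-0.51, adjusted p = 0.0340, edgeR). Phf1 and Aebp2 each had a log2 fold change of 0.01.

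Kdm6b (ENSMUSG00000018476, chromosome 11, 69398508 to 69413675, minus strand), an inducible demethylase of H3 lysine 27, had 5.95, 4.21 and 3.78 FPKM in WT and 5.66, 2.35 and 1.98 FPKM in Scd-1-/-. Scd-1-/- replicates 2 and 3 lay below every WT library, while replicate 1 was near the highest WT value. The means were 4.65 ± 1.15 and 3.33 ± 2.03 FPKM (SD, n = 3), and the log2 fold change was -0.46 (SE 0.41, 95% interval -1.41 to 0.49, adjusted p = 0.794, edgeR), the lowest of the 10. It was -1.09 without Scd-1-/- replicate 1 (adjusted p = 0.110, edgeR), -0.22 without WT replicate 1, and -0.26 and -0.20 without Scd-1-/- replicates 2 and 3. With replicates 2 and 3 only it was -0.85 and passed (adjusted p = 0.0165, edgeR), as did 6.07% of the genes in that fit in the same direction. Within same-numbered libraries the difference in log2 CPM was -0.06 for replicate 1, -0.86 for replicate 2 and -0.87 for replicate 3.

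Kdm6a, the paralog encoded on the X chromosome, had 1.96, 1.85 and 2.46 FPKM in WT and 2.67, 2.81 and 2.62 FPKM in Scd-1-/-. The log2 fold change of Kdm6a was 0.39 (adjusted p = 0.495, edgeR), and it did not pass. The ratio of Kdm6b to Kdm6a was 3.04, 2.27 and 1.53 in WT and 2.12, 0.838 and 0.754 in Scd-1-/-, and that of Kdm6b to Ezh2 was 0.639, 0.359 and 0.279 against 0.687, 0.190 and 0.187. Both ratios were highest in replicate 1 of their genotype, and both overlapped between the genotypes. The genes most like Kdm6b over the 6 libraries were Mylip (0.0826), Pfkm (0.0846) and Rcor2 (0.0940), by the same root-mean-square difference in centred log2 CPM.

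**Figure D3:**
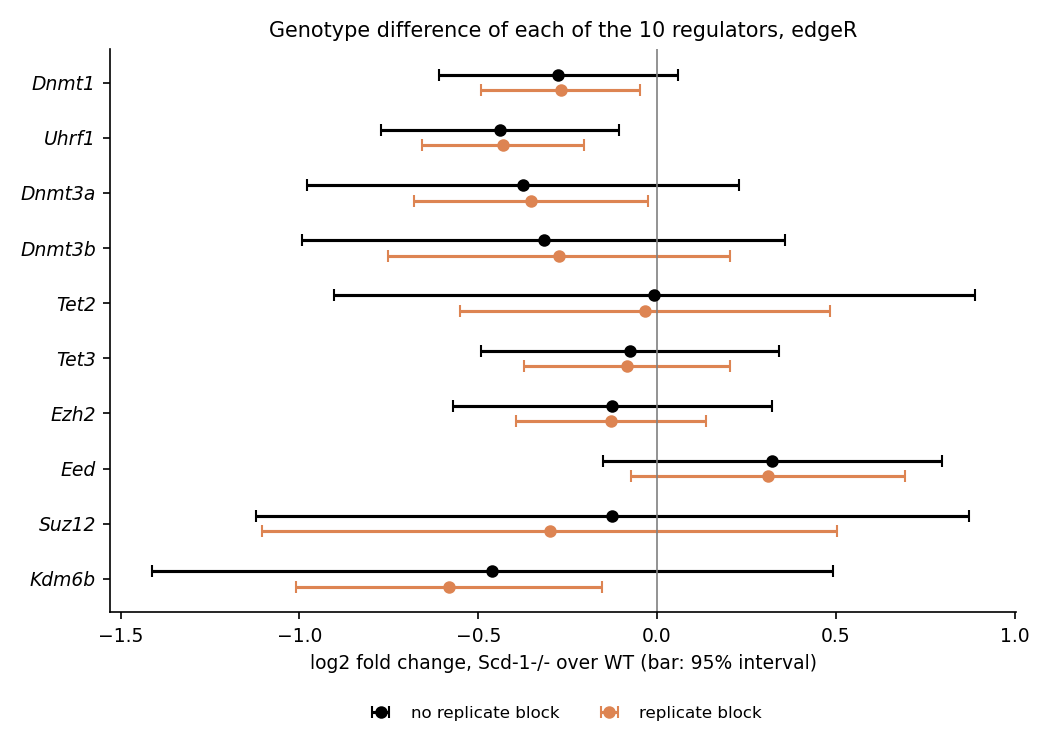
Log2 fold change, Scd-1-/- over WT (x axis), of the 10 regulators with its 95% interval, from edgeR without (black) and with (orange) the replicate number as a block. Without the block, Uhrf1 alone has an interval that leaves out 0 (-0.77 to -0.11). With it, those of Dnmt1, Uhrf1, Dnmt3a and Kdm6b do, and the interval of Suz12 is the widest.

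Replicate 1 differed from replicates 2 and 3 in many of the regulators, and in both genotypes alike for some of them. The log2 CPM of replicate 1 minus the mean of replicates 2 and 3 was 0.92 in WT and 1.10 in Scd-1-/- for Tet2, above those of 94.8% and 96.5% of tested genes. For Kdm6b it was 0.56 and 1.37. It was negative in both genotypes for Dnmt3b (-0.97 and -0.24), Dnmt3a (-0.84 and -0.60), Ezh2 (-0.45 and -0.49), Dnmt1 (-0.41 and -0.23) and Uhrf1 (-0.44 and -0.17). For Suz12 and Eed it was near 0 in WT (-0.01 and 0.07) and negative in Scd-1-/- (-1.86 and -0.56). With replicates 2 and 3 only, the log2 fold changes not yet given were -0.32 for Dnmt1, -0.40 for Dnmt3a, -0.49 for Dnmt3b, -0.12 for Tet3, -0.11 for Ezh2 and -0.06 for Tet2, and none of these passed. What a replicate number stands for is not given in the sources used here, so the source of this difference was not tested.

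**Figure D4:**
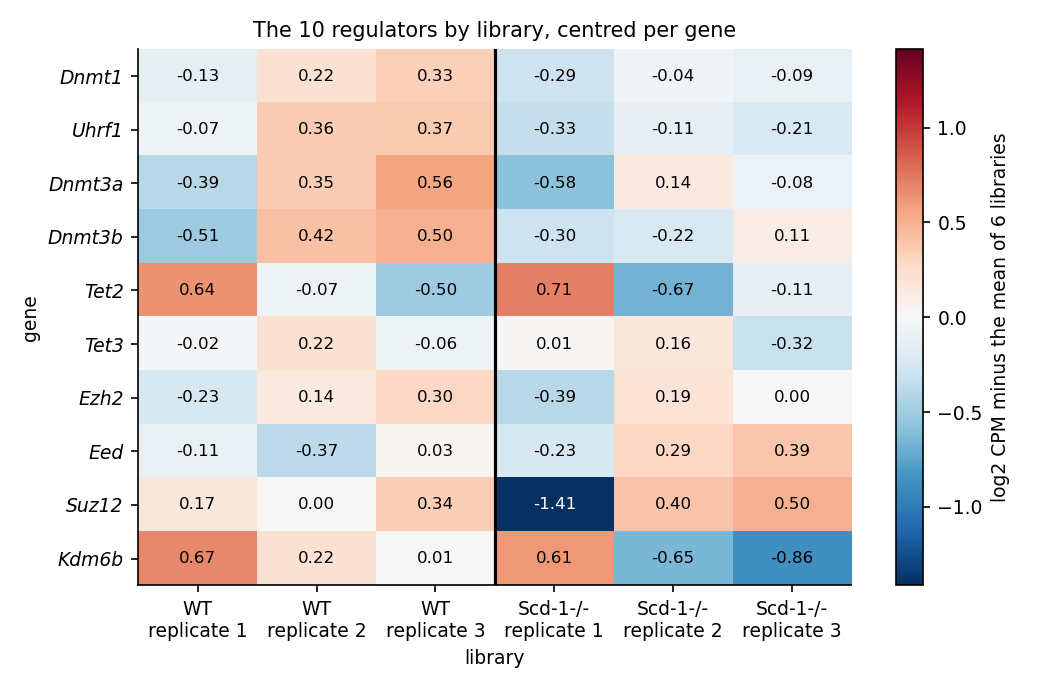
Log2 CPM of the 10 regulators in the 6 libraries, each gene centred on its own mean over the libraries (colour scale and printed values). Replicate 1 of both genotypes is high for Tet2 and Kdm6b and low for Dnmt3a and Ezh2, and the Suz12 value of Scd-1-/- replicate 1 is the lowest for that gene.

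By deposited FPKM, which is per length, the order of the mean levels in WT was Uhrf1, Dnmt1, Eed, Ezh2, Suz12, Kdm6b, Tet3, Dnmt3b, Dnmt3a and Tet2. Uhrf1 and Dnmt1 overlapped in WT, as did Dnmt3b and Dnmt3a, and the other neighbours did not. In Scd-1-/- Dnmt1 came first, overlapping with Uhrf1, and Ezh2, Suz12, Kdm6b and Tet3 overlapped each with the next. Dnmt1 and Uhrf1 stood above 96.3% and 96.2% of the genes with a count, Ezh2 above 78.2%, Dnmt3a above 43.7% and Tet2 above 31.6%.

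The order rests in part on the gene length behind the deposited FPKM. The length implied by count and FPKM was 29217 bases for Dnmt3a, 1.76 times the 16642 bases of its merged GENCODE M21 exons, and 2519 bases for Eed, 0.658 times its merged exons. On the length of merged exons, Uhrf1 had a mean of 119 and Dnmt1 of 82.8 FPKM in WT. Eed (11.6 FPKM) then came below Ezh2 (15.6 FPKM) and Suz12 (12.3 FPKM), and Dnmt3a reached 1.93 FPKM. Comparisons of the same gene between genotypes do not depend on this length.

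Other genes of the pathways were read from lists. Of 7 methyl-CpG readers, 4 were tested and 0 passed at any of these thresholds, with Mbd1, Mbd2 and Mbd3 at log2 fold changes of -0.14, 0.27 and -0.10. Of 21 genes of Polycomb repressive complex 1, which reads the PRC2 mark, 20 were tested and 0 passed, with 9 positive and 11 negative log2 fold changes, a median of -0.04 and 4 lower genes at an unadjusted p under 0.05. In the fit to replicates 2 and 3 only, 4 passed the adjusted p, all lower, namely Cbx7 and, named after their values were seen, Cbx2, Cbx6 and Kdm2b. Over all genes, 4.68% were lower at an unadjusted p under 0.05 with all libraries. In the fit to replicates 2 and 3 only, 6.07% were called lower. Cbx7, the chromodomain subunit that binds methylated lysine 27, had 5.16, 4.88 and 4.45 FPKM in WT and 4.18, 2.92 and 2.23 FPKM in Scd-1-/-. Its groups did not overlap, and its log2 fold change of -0.61 (adjusted p = 0.441, edgeR) was called with the replicate block (-0.65, adjusted p = 0.0455, edgeR), which called 4.7% of the tested genes. The 4 tested genes of the PR-DUB complex, which removes the ubiquitin set by Polycomb repressive complex 1, were all negative with 0 passing and 1 at an unadjusted p under 0.05, with Asxl1 (-0.38), Foxk1 (-0.36), Foxk2 (-0.12) and Bap1 (-0.09).

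The enzymes use S-adenosylmethionine to methylate and 2-oxoglutarate to demethylate. Of 9 genes for S-adenosylmethionine supply, 9 were tested and 0 passed at any of these thresholds, with a median of -0.01, and Shmt2 (-0.24), Ahcy (0.16), Mthfd1 (0.05) and Shmt1 (-0.01) as the most abundant. With replicates 2 and 3 only, 1 of the 9 passed the adjusted p, and it was lower. Of 10 genes for 2-oxoglutarate and its competitors, 10 were tested and 0 passed, with 1 at an unadjusted p under 0.05. Of these, 2 passed the adjusted p with replicates 2 and 3 only, both lower, Idh2 and, named after its value was seen, D2hgdh. That fit called 6.07% of all its genes lower. Idh2, which makes 2-oxoglutarate in mitochondria, had 11.5, 14.8 and 12.4 FPKM in WT and 8.18, 6.92 and 5.62 FPKM in Scd-1-/-. Its log2 fold change was -0.88 (adjusted p = 0.154, edgeR) and was called with the replicate block (-0.88, adjusted p = 0.0221, edgeR). Of 24 cell cycle genes, 24 were tested and 0 passed, with 16 negative and 8 positive log2 fold changes, a median of -0.12, and 1 higher and 2 lower genes at an unadjusted p under 0.05. The fit to replicates 2 and 3 only called 5 by adjusted p, all lower, namely Mcm2, Mcm5, Mcm7, Cdc6 and Cdt1, which apart from Mcm5 are named after their values were seen. Of all genes in that fit, 6.07% were called lower. By FPKM, Mcm5 (-0.42), Mcm6 (-0.15), Rrm1 (-0.15) and Ccnb2 (-0.07) were the most abundant of the 24 cell cycle genes. Beside the cell cycle genes, which ranged from -0.45 to 0.44, Uhrf1 at -0.44 lay near the lower end, where Cdt1 alone was lower, and Dnmt1 lay at -0.28.

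Among 12 known T cell targets of Dnmt3a or Ezh2, genes passed in both directions. Of these, 11 were tested, and 2 passed the adjusted p, Tcf7 lower (-3.24, adjusted p = 0.00434, edgeR) and Eomes higher (1.69, adjusted p = 0.0359, edgeR). Among those past the thresholds of the study, Tcf7 and Id3 (-1.83) were lower and Cdkn2a (2.90), Cdkn2b (2.57) and Eomes higher. The replicate block raised the number past the adjusted p to 7 (3 higher and 4 lower), Ccr7 (-1.71 without and -1.53 with the block) among them. A fit to replicates 2 and 3 only called 8 (4 higher and 4 lower), including Klf2, higher at 0.89 (adjusted p = 0.00850, edgeR) and named after its value was seen. Tcf7 encodes a factor of the naive and memory state, Ccr7 directs cells to lymph nodes, and Cdkn2a and Cdkn2b encode inhibitors of the cell cycle. The list holds genes on which these data were known to differ, so its counts are no independent evidence.

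Genes that DNA methylation or Polycomb keep silent in most tissues were near 0. The 10 germline genes summed to 0 to 5 counts a library, and 8 of them had 0 counts in every library, with Dazl and Ddx4 as the exceptions. The 23 Hox genes summed to 19 to 57 counts, and 13 had 0 counts in every library. Hoxb4 had 25, 24 and 13 counts in WT and 41, 30 and 38 counts in Scd-1-/-, at a log2 fold change of 0.75 over all genes with a count (adjusted p = 0.686, edgeR).

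**Figure D5:**
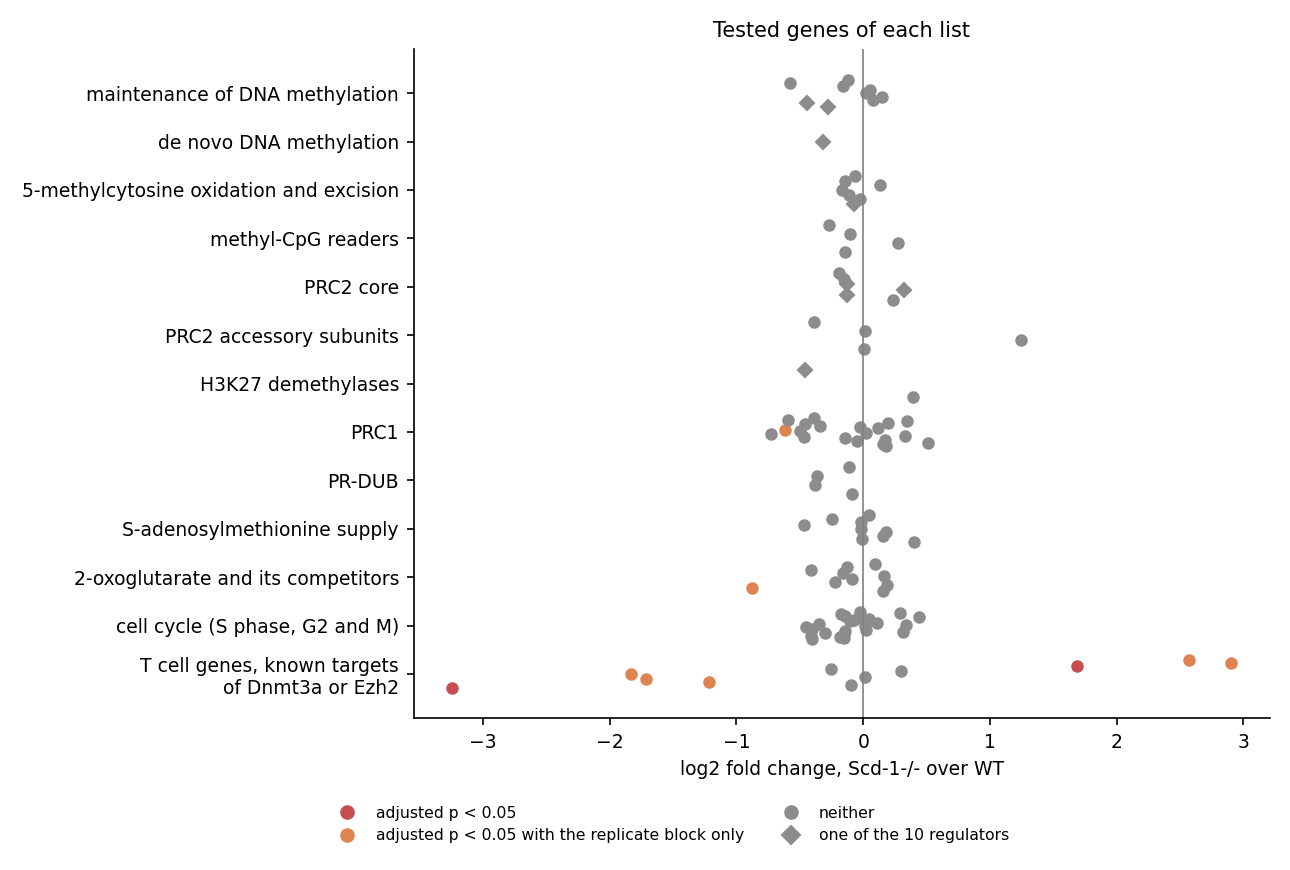
Log2 fold change, Scd-1-/- over WT (x axis), of the tested genes in 13 lists (y axis), with diamonds for the tested regulators, red for an adjusted p under 0.05 and orange for one under 0.05 with the replicate block only. The regulators lie between -0.46 and 0.32, whereas Tcf7 at -3.24 and Cdkn2a at 2.90 mark the ends of the T cell target list.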

How the data were processed

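Per the labels, reads were checked with FastQC, aligned with HISAT2 to GRCm38 and counted with StringTie 1.3.0. Sources differ on the library: a stranded kit for total RNA after column extraction in the methods, poly(A) RNA after Trizol with another kit in the labels. Whether counting used strand is not given in the sources used here, so antisense reads cannot be told apart, and E230029C05Rik over Eed had 10 counts in all. For each library the authors deposited raw counts per gene and the FPKM made from them. FPKM carried no further scaling factor (largest relative deviation 4.52e-06).

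Counts of 3 WT and 3 Scd-1-/- libraries were tested with edgeR 4.0.16 (quasi-likelihood, TMM, R 4.3.3) on the 9627 genes at or above a mean of 1 FPKM, without a replicate block. The methods of the study name edgeR, TMM and the thresholds on fold change and p, while the FPKM minimum and the quasi-likelihood test were chosen here. Dnmt3a and Tet2 fell under that minimum and came from the fit to all 17192 genes with a count. Adjusted p-values are by Benjamini-Hochberg over all genes of a fit. The scripts were tested on simulated data. The 10 regulators and all lists were chosen with earlier results of these data known. Named are the regulators, their paralogs, Scd1, in each list the genes called without or with the replicate block or otherwise up to 4 by FPKM, and the 3 genes most like the regulators with the highest and lowest log2 fold change. Epop had no match by symbol, and some list genes are not reported here. Alternatives used DESeq2 1.42.0, limma 3.58.1 and other filters, scalings and libraries, 14 in all.

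Same-numbered WT and Scd-1-/- libraries deviated together from their group means, with r of 0.595, 0.306 and 0.470 across genes for replicates 1, 2 and 3. Both groups carry these numbers in the labels, and the replicate block takes them to pair the libraries. Libraries of unlike number were not compared, and replicate 1 stood apart in both genotypes. The check therefore cannot show that replicates 2 and 3 pair by number. No replicates agreed within sampling noise (lowest chi-square per degree of freedom 12.2). Positions are those of GENCODE M21, matched for 34267 of 34745 IDs. Copies of at least 90% identity were searched with BLAST 2.17.0. Promoters are RefSeq sequences on GRCm38.p6, and Kdm6b had no entry.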

Additional observations from a re-analysis of the deposited data

How the results depend on the processing

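The 10 log2 fold changes were recomputed under 135 combinations of gene and alternative. In 128 the direction was kept, in 7 it turned, and in 2 the adjusted p went under 0.05 (Uhrf1 and Kdm6b with replicates 2 and 3 only). With 1 library left out, Tet2 ranged from -0.46 to 0.39, Tet3 from -0.19 to 0.054, Ezh2 from -0.27 to 0.014 and Suz12 from -0.41 to 0.27. Tet2 turned without WT replicate 1 (0.39), Scd-1-/- replicate 2 (0.26) and Scd-1-/- replicate 3 (0.093), Tet3 without Scd-1-/- replicate 3, and Ezh2 and Suz12 without Scd-1-/- replicate 1. Suz12 also turned, to 0.29, with replicates 2 and 3 only. The number of regulators called stayed 0 by the thresholds of the study in every alternative, and by adjusted p it moved to 2 with replicates 2 and 3 only. The cause of these differences was not tested. Dnmt3a, Dnmt3b, Tet2, Tet3 and Kdm6b lie under a mean FPKM of 5 and have no value at that minimum.

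Genes called by the thresholds of the study numbered 71, against 161 with DESeq2, 369 with replicates 2 and 3 only, 148 without an FPKM minimum, 43 at a minimum of 5, and 25 to 163 with 1 library left out. By adjusted p they numbered 11, against 266 with DESeq2, 17 with limma on log2(FPKM + 1), 1213 with replicates 2 and 3 only, 84 without a minimum, 18 at a minimum of 5, and 2 to 182 with 1 library left out. Leaving out Scd-1-/- replicate 1 gave 163 and 182 genes, WT replicate 1 143 and 133, WT replicate 2 25 and 3, WT replicate 3 25 and 3, Scd-1-/- replicate 2 31 and 6, and Scd-1-/- replicate 3 26 and 2. Pathway list genes called by the thresholds of the study were 6, and 2 to 8 with 1 library left out. By adjusted p they were 2, against 8 with DESeq2, 25 with replicates 2 and 3 only, 6 without a minimum, and 0 to 8 with 1 library left out.

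With the replicate block, which pairs same-numbered libraries, 184 genes passed the thresholds of the study and 452 the adjusted p, of which 9 were pathway list genes. Among the named genes, the block called by adjusted p Cbx7, Idh2, Ccr7, Id3, Cdkn2a, Cdkn2b, Cd79b and Klrb1c in addition, and it changed the call of no regulator (Uhrf1 had an adjusted p of 0.0512, edgeR). With 3 libraries a genotype, the 95% intervals of Dnmt3a, Dnmt3b, Tet2, Suz12 and Kdm6b were wider than 1 on the log2 scale.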

Other observations

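Hells and Cdca7, the remodeller that opens DNA to Dnmt1 and its partner, were looked at after their values were seen. Cdca7 had 16.1, 37.9 and 38.7 FPKM in WT and 13.9, 24.6 and 22.3 FPKM in Scd-1-/- (log2 fold change -0.58, adjusted p = 0.642, edgeR), with replicate 1 the lowest of both genotypes, and it passed with replicates 2 and 3 only (-0.67, adjusted p = 0.00567, edgeR). Hells had 2.60, 3.18 and 5.14 FPKM in WT and 2.57, 4.36 and 4.93 FPKM in Scd-1-/- (0.15, adjusted p = 0.929, edgeR), and its groups overlapped. Mki67, a marker of dividing cells, had a log2 fold change of 0.44 (adjusted p = 0.468, edgeR) with overlapping groups, opposite in sign to Mcm5 and Uhrf1.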
